A study of Homo sapiens with 12 samples.

Results

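The kinesin, dynein and dynactin genes described here are 32 members named by symbol, of 19938 gene symbols that have a row in the deposited gene table. They comprise 18 kinesin motor chain genes, 3 kinesin light chain genes, 8 subunits of cytoplasmic dynein and 3 subunits of dynactin. All 32 had a row in the gene table, and 18 of them appeared in at least 1 of the authors' tables of changed polyadenylation or splicing. The cells were neurons of cortical type, obtained from the established human embryonic stem line WA01 through induced overexpression of the transcription factor NGN2. They carried shRNA against TDP-43 (shTDP-43) or a scrambled shRNA (shControl) for 7 days, so the hairpin is the only labelled difference and both groups share the NGN2 programme and 1 cell line. There were 12 libraries, with 3 shTDP-43 and 3 shControl replicates in stranded total RNA-seq and the same numbers in 3' end-seq, which reads the last bases of polyadenylated transcripts. The labels do not say whether replicates were separate cultures, so the authors' adjusted p-values may measure technical spread alone.

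Kinesins and cytoplasmic dynein are ATP-driven motors that walk along microtubules. Most kinesins carry cargo toward the microtubule plus end, which in an axon points to the synapse, and dynein, activated by the dynactin complex, carries cargo back toward the cell body. Neurons depend on both because proteins and organelles made in the cell body must travel the length of the axon. TDP-43, encoded by TARDBP, is a nuclear RNA-binding protein that binds UG-rich RNA and holds back the use of cryptic exons and of some polyadenylation sites.

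The deposited columns of values per library carry names that match no sample label, and groups were not assigned from measured levels. The levels of the motor genes, of TARDBP and of neuronal marker genes were therefore not analysed here. Every value below is the authors' own comparison of shTDP-43 with shControl, 1 value per gene, site or intron, with no spread between replicates and with unknown depth. The tables list changed items only, at an adjusted p of at most 0.05, so a gene that is missing from them is not shown to be unchanged. No change in the 3' end-seq polyadenylation table was under 0.1 in size, so smaller changes may have been left out of it. In RNA-seq polyadenylation each call was labelled distal or proximal. In neither RNA-seq table was the group with the higher value labelled, and positive was read as higher after shTDP-43. With longer paired to distal and shorter to proximal, the labels matched in 226 of the 235 genes listed in both polyadenylation tables. Of these 235 genes, 1 was a motor gene. Since 84.7% of all genes listed from 3' end-seq were longer and 95% from RNA-seq distal, most would match from these shares alone. For splicing, the positive reading gives a rise of 0.449 for the STMN2 intron that ends at an unannotated site, in the authors' deposited table. The opposite reading would turn every RNA-seq sign given here.

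Splicing was the most frequent kind of change listed for the motor genes. Of the 32, 12 were in the splicing table, where 11.8% of all gene symbols were listed. The 3' end-seq polyadenylation table held 5 of them (9.64% of all gene symbols) and the RNA-seq polyadenylation table held 4 (4.19%). A cryptic polyadenylation site was listed for 1 (1.98% of all gene symbols). In any of these tables stood 18 of 32 members (56.25%), against 22.4% of all gene symbols. The members were chosen with earlier results of these data known and their expression level was not matched, so nothing is read from these shares. By role, 9 of 18 kinesin motor chains, 2 of 3 light chains, 5 of 8 dynein subunits and 2 of 3 dynactin subunits were listed. The 14 listed nowhere were KIF3A, KIF3B, KIF5B, KIF7, KIF9, KIF13A, KIF13B, KIF16B, KIF17, KLC4, DYNC1I1, DYNC1I2, DYNC1LI2 and DCTN4.

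All 5 motor genes listed from 3' end-seq gained use of a polyadenylation site farther downstream after TDP-43 knockdown. They were the light intermediate chain gene DYNC1LI1, KIF26B, KIF2A, KIF1C and the dynein heavy chain gene DYNC1H1. Among all 2220 genes listed there, 84.7% were called longer, so 5 of 5 is near the share of the table. The size of the change ran from 0.118 to 0.318 on the authors' usage index, whose scale is not stated. The median size was 0.170, against 0.214 over all 1881 longer genes. All of these longer genes changed by at least 0.1, so both medians leave out any smaller changes. In each gene the rising site lay 1 or 2 nt before the RefSeq 3' end, so the transcripts that gained use were those ending where the annotated gene ends (positions in hg38). Over all longer genes with a RefSeq match, 1145 of 1788 (64.0%) had the rising site within 10 nt of that end.

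**Figure D1:**
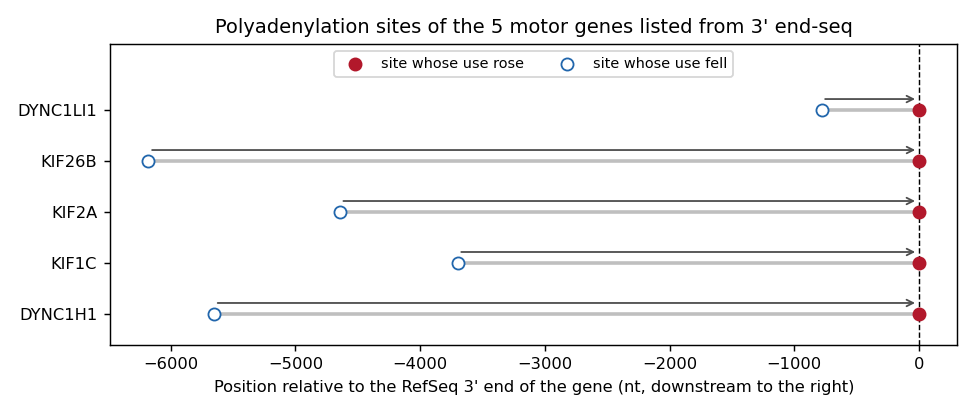
Falling (open circles) and rising (filled circles) polyadenylation sites of the 5 motor genes listed from 3' end-seq, placed by distance in nt from the RefSeq 3' end (dashed line). All 5 rising sites sit 1 or 2 nt before the end, and the falling sites lie from 781 nt (DYNC1LI1) to 6178 nt (KIF26B) before it.

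DYNC1LI1 encodes the dynein light intermediate chain that binds cargo adaptors, and it had the largest change and the shortest step of the 5. Its index changed by 0.318 (adjusted p = 2.72e-195) in the authors' deposited table, with a larger value than 81.0% of longer genes. On the minus strand of chromosome 3, use moved 779 nt, away from position 32526755 and to position 32525976. KIF26B, a kinesin known mainly from developmental cell migration and adhesion, changed by 0.284 (adjusted p = 3.06e-84) in the authors' deposited table. Its sites at 245703254 and 245709431 on chromosome 1 are 6177 nt apart, the longest step of the 5.

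KIF2A belongs to the kinesins that take microtubules apart at their ends and do not walk. It changed by 0.170, with an adjusted p given as exactly 0, in the authors' deposited table. Its sites at 62386381 and 62391023 on chromosome 5 are 4642 nt apart. The RefSeq gene DIMT1 also covers the rising site, and the table's strand assigns that site to KIF2A. KIF1C, which transports dense-core vesicles and integrins, changed by 0.134 (adjusted p = 1.03e-08) in the authors' deposited table. Its sites at 5024702 and 5028400 on chromosome 17 are 3698 nt apart.

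DYNC1H1, the motor subunit of cytoplasmic dynein, had the smallest of the 5 changes, 0.118 with an adjusted p given as exactly 0, in the authors' deposited table. Use fell at position 102050791 and rose 5650 nt downstream at position 102056441 on chromosome 14. The rising site is also the cryptic site listed for this gene, classed as lying in the 3'UTR. Its usage was 11.9% in shTDP-43 neurons and 1.16% in shControl neurons in the authors' deposited table, 1 value per group, a ratio of 10.3. Among the 457 cryptic sites it ranked 8 from the lowest by usage after shTDP-43, and the median of the 144 cryptic 3'UTR sites was 19.0%. The cryptic table has no p-value, and how the authors picked its sites is not stated. If low use in control was required, the ratio also reflects that choice. The lowest usage after shTDP-43 among the 457 sites was 10.7%. Although the site was called cryptic, it stands 2 nt from the RefSeq end of the gene.

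In RNA-seq, polyadenylation shifted to distal sites in 3 listed motor genes and to a proximal site in 1. Distal calls made up 95% and proximal calls 4.99% of the 841 genes in that table. DYNLRB1, a roadblock-type light chain of dynein, changed by 0.907 (adjusted p = 0.000458) in the authors' deposited table. KIF1C changed by 0.492 (adjusted p = 0.0401), the highest adjusted p of the 4, in the authors' deposited table. KIF3C, a neuronal kinesin of the heterodimeric class, changed by 0.132 (adjusted p = 0.00558) in the authors' deposited table, and only 0.250% of the 799 distal genes had a smaller change. KIF5C, a heavy chain of conventional kinesin with neuronal expression, was the proximal one at -0.180 (adjusted p = 0.00160) in the authors' deposited table. The median size over the 42 proximal genes was 0.677, and over the distal genes 0.765. This index is on another scale than that of 3' end-seq, so the sizes are not set against each other. RNA-seq gives no site positions here.

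**Figure D2:**
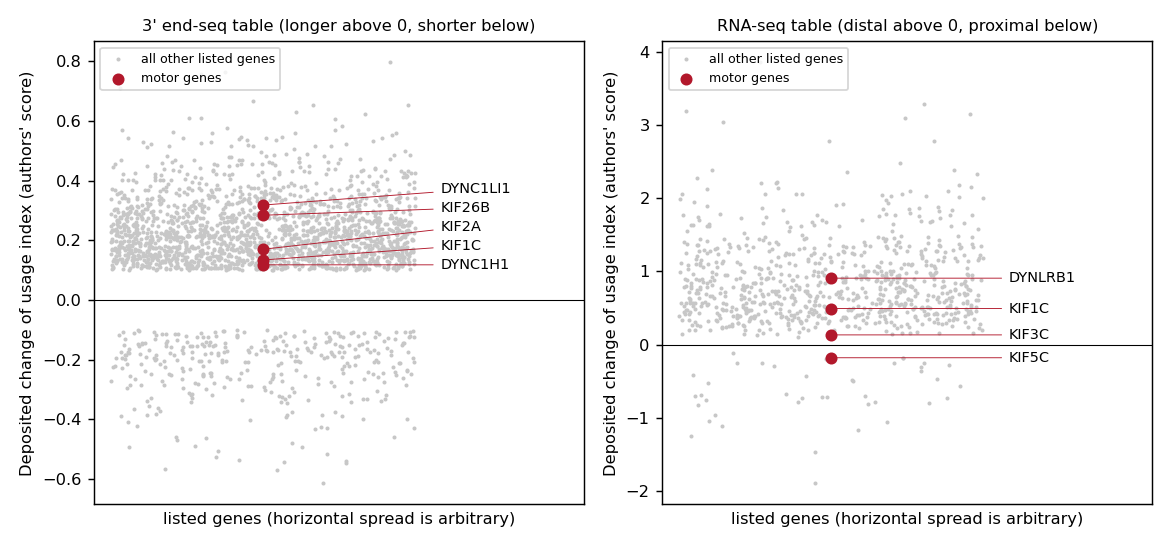
Deposited change of the polyadenylation usage index (vertical axis, authors' score) for every listed gene (grey points) and for the motor genes (red points), in 3' end-seq (left) and RNA-seq (right). All 5 motor genes of 3' end-seq lie above 0 between 0.118 and 0.318, and in RNA-seq KIF5C at -0.180 lies below 0.

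Most splicing changes of the motor genes were small. The 12 genes had 15 clusters, sets of introns that share a splice site, with 76 introns. Each cluster has 1 adjusted p, so single introns were not tested. An intron's value is the change of its share of the cluster, where 1 is the whole cluster, and the changes of a cluster sum to about 0. The largest change per cluster had a median of 0.045 in the motor genes and 0.064 over all 2994 clusters. A change of at least 0.1 was present in 2 of the 15 clusters (13.3%), against 33% of all clusters, and in 9 of 15 the largest was under 0.05.

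Many of these introns were outside the annotation: 39 of 76 (51.3%) used at least 1 unannotated splice site, against 40.0% of all 15980 introns. Among the 39, 12 had a positive change, 22 a negative change and 5 a change of 0 at the 3 decimals given. Over all introns of this kind, 3286 were positive, 2661 negative and 444 were 0. Introns of the same cluster are not independent, because their changes sum to about 0, so nothing is read from these counts. A new pairing of annotated sites was present in 7 introns of the motor genes (9.21%), 3 positive and 4 negative. Over all introns there were 2022 of this kind (12.7%), 1152 positive, 730 negative and 140 at 0. Nothing is read from these counts either. Deposited intron ends are the exon bases beside the intron: the letters next to them were GT at 167 of 169 annotated 5' splice sites and AG at 27 of 27 annotated 3' splice sites that fall in RefSeq promoter windows. Exon lengths below follow from that.

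**Figure D3:**
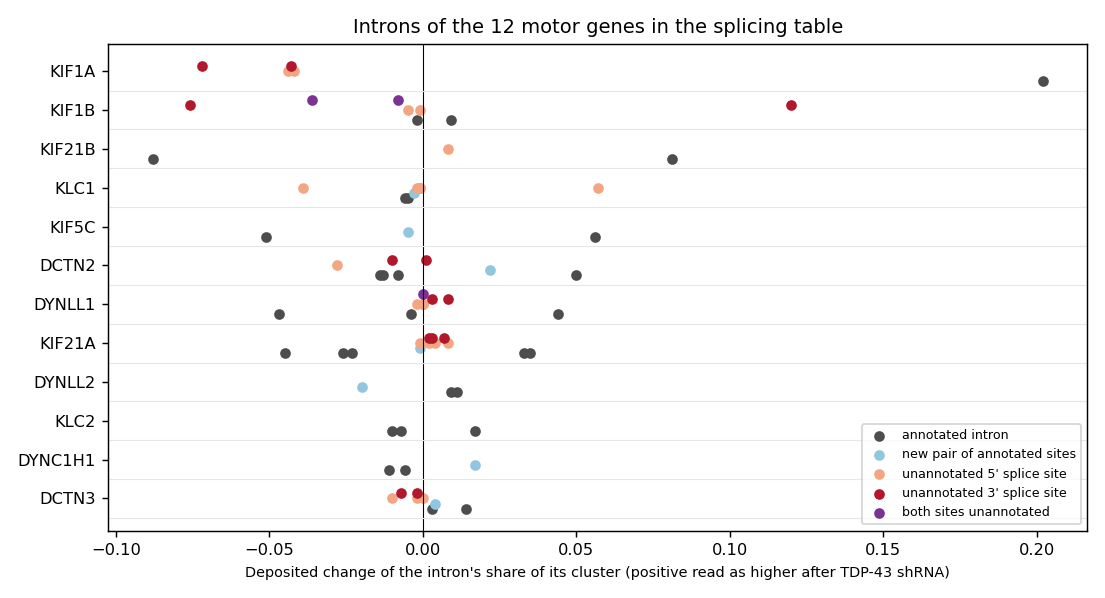
Deposited change of share for each of the 76 introns (points, horizontal axis) in the 12 motor genes of the splicing table, coloured by the authors' annotation class. The values at 0.202 in KIF1A and 0.120 in KIF1B are the only ones of at least 0.1 in size, and those of DYNLL2, KLC2, DYNC1H1 and DCTN3 lie within 0.020 of 0.

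KIF1A, the kinesin that carries synaptic vesicle precursors and dense-core vesicles down the axon, had the largest splicing change of the motor genes. The annotated intron from 240726940 to 240737063, on the minus strand of chromosome 2, gained 0.202 in the authors' deposited table (adjusted p = 6.02e-09). The 4 other introns of the cluster use unannotated sites inside it and together lost that amount, with a sum of -0.201. They enclose 2 short exons, of 27 nt at 240734719 to 240734745 and of 24 nt at 240728389 to 240728412, and both lengths are multiples of 3. Introns into and out of the 27-nt exon changed by -0.072 and -0.044, and those of the 24-nt exon by -0.043 and -0.042, in the authors' deposited table. Introns with unannotated sites thus lost share after shTDP-43 in this cluster.

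KIF1B, which encodes a close relative of KIF1A that carries mitochondria and synaptic vesicle precursors, had the other change of over 0.1. From the 5' splice site at 10278128 on chromosome 1, the intron to an unannotated site at 10282322 gained 0.120 in the authors' deposited table (adjusted p = 3.43e-05). That site lies 78 nt upstream of the annotated 3' splice site at 10282400, and the annotated intron changed by -0.002 in the authors' deposited table. The intron into an unannotated 42-nt exon at 10279097 to 10279138 changed by -0.076, and the intron that joins this exon to 10282322 by -0.036, in the authors' deposited table. Summed over introns, the site at 10282322 gained 0.084 and the annotated one changed by -0.007. A second KIF1B cluster had no change above 0.009 in size (adjusted p = 0.0175) in the authors' deposited table.

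**Figure D4:**
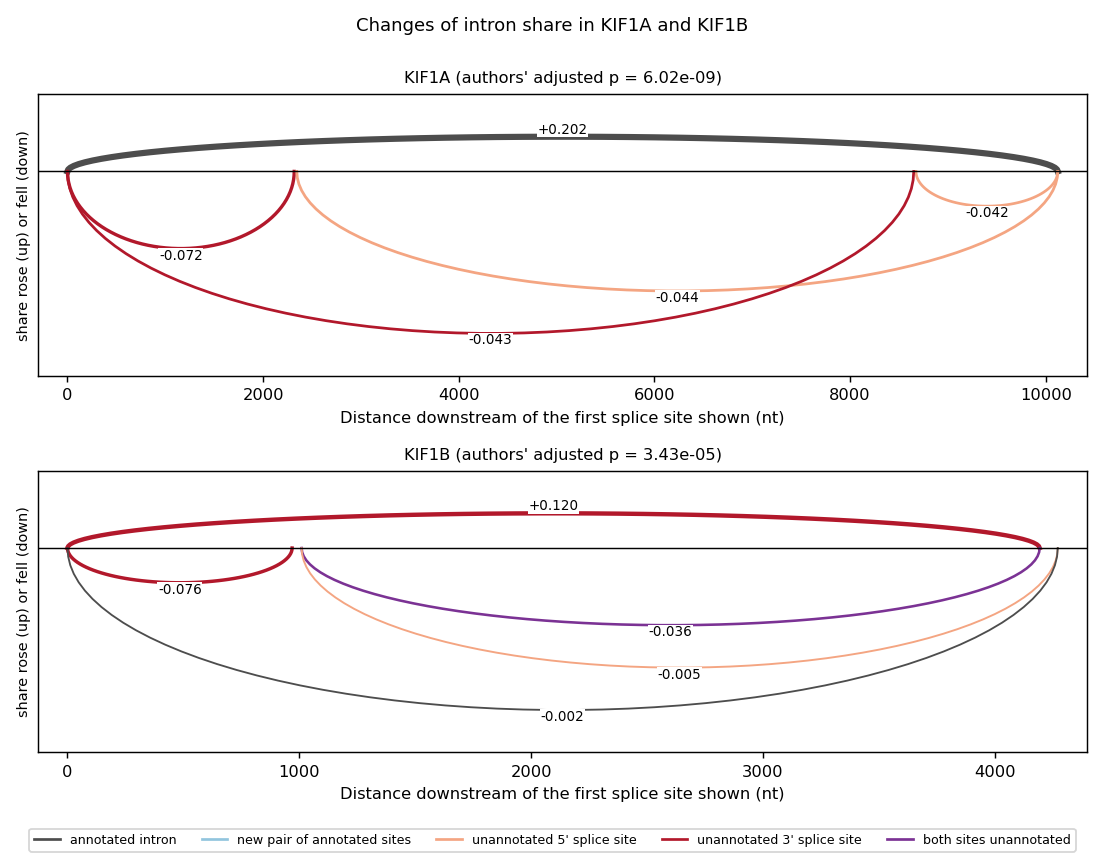
Introns of the KIF1A and KIF1B clusters as arcs over distance in nt from the first splice site, above the line where the share rose and below where it fell, with the deposited change printed on each arc and line width following its size. In KIF1A the annotated intron (0.202) stands alone above the line, and in KIF1B only the intron to an unannotated 3' splice site (0.120) does.

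The other kinesins in the splicing table were KIF21B, KIF5C and KIF21A, and in each the largest change was that of an annotated intron. KIF21A and KIF21B are kinesins that restrain microtubule growth. In KIF21B, 2 annotated introns start at the same 5' splice site, 200974714 on the minus strand of chromosome 1. The one to 200974194 gained 0.081 and the one to 200973578 changed by -0.088 in the authors' deposited table (adjusted p = 0.0129). The gaining intron enters a 191-nt stretch that ends at an unannotated 5' splice site, 200974004. The intron out of that stretch changed by only 0.008 in the authors' deposited table, so gain of an internal exon is not shown. In KIF5C, the introns on either side of a 72-nt exon on chromosome 2 moved in opposite directions. The intron into it changed by 0.056 and the intron out of it by -0.051 in the authors' deposited table (adjusted p = 0.0328). The intron that skips the exon changed by -0.005, so the cluster does not show a net gain or loss of the exon. The last junction of that cluster lies 18796 nt before the RefSeq end of KIF5C.

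KIF21A had 2 clusters with small adjusted p-values and small changes. In the first (adjusted p = 8.88e-08), the annotated intron from 39370261 to 39442927 changed by -0.023 and 6 introns with unannotated sites by 0.022 in sum, the largest of them 0.008, in the authors' deposited table. The other cluster (adjusted p = 2.70e-07) had no change above 0.045 in size in the authors' deposited table. One unannotated 5' splice site of the first cluster, at 39443090 on the minus strand of chromosome 12, lies 30 nt after a RefSeq start site. Its intron changed by only 0.002 in the authors' deposited table. It is shown because it is the only splice site of a motor gene whose letters are held in the RefSeq promoter table (GRCh38.p14, chr12:39443079-39443098, minus strand), with the first 2 intron bases in capitals.
KIF21A unannotated 5' splice site: gcggcggagGTgagccggcc

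The light chain genes KLC1 and KLC2 encode the subunits that couple conventional kinesin to cargo, and KLC1 is known for alternative splicing of its 3' part. In KLC1, 9 introns on chromosome 14 formed 1 cluster (adjusted p = 2.23e-05), placed between 69.5% and 98.8% of the gene's length. The 98.8% end rests on 1 intron, which changed by -0.001 in the authors' deposited table. The RefSeq gene XRCC3 also covers that end. From an unannotated 5' splice site at 103679518, which lies 27 nt upstream of the annotated one at 103679545, the intron to 103685638 gained 0.057 in the authors' deposited table. The intron from the same site to 103684986 changed by -0.039 in the authors' deposited table. The first skips and the second enters a 51-nt exon at 103684986 to 103685036. Over the cluster, introns that skip this exon gained 0.051 and those that enter it changed by -0.047 in sum. The annotated intron out of the exon changed by only -0.005 in the authors' deposited table. KLC2 had 3 annotated introns around a 231-nt exon of chromosome 11, and the skipping one changed by 0.017 in the authors' deposited table (adjusted p = 0.0151). The antisense gene KLC2-AS1 covers the same place. The cluster is deposited on the plus strand, and the sources used here do not say how the strand was counted.

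Among dynein subunits, DYNLL1, which encodes a small light chain shared with many other complexes, had its change in its first introns. The gene has 2 RefSeq start sites on chromosome 12, at 120469842 and 120496113, and introns from both end at 120496416. The intron from 120470104, the 5' splice site 262 nt after the upstream start, gained 0.044 in the authors' deposited table (adjusted p = 2.62e-05). The intron from 120496216, which lies 103 nt after the downstream start, changed by -0.047 in the authors' deposited table. Summed over introns, the upstream 5' splice site gained 0.055 and the downstream one changed by -0.051. The other 8 introns of the cluster changed by at most 0.008 in size.

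The introns with the largest changes begin after these start sites, and use of the start sites themselves was not tested. The 250 bases before each start site are given from RefSeq (GRCh38.p14, plus strand, chr12:120469592-120469841 and chr12:120495863-120496112), with CCAAT in capitals.
DYNLL1 upstream start: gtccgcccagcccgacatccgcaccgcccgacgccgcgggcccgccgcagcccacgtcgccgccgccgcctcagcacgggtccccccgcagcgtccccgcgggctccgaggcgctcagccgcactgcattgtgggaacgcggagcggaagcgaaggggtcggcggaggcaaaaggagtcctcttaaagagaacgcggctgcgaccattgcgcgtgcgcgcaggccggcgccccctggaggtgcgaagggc
DYNLL1 downstream start: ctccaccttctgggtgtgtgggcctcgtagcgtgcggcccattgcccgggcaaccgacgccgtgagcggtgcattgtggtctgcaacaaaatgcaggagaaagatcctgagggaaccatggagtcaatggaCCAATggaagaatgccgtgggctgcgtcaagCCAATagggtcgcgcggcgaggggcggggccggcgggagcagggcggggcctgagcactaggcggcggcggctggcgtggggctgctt

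The upstream sequence has 75.2% G or C and 39 CG dinucleotides, and the downstream one has 66.4% and 22, against medians of 58% and 11 over 35116 windows of the same length. CCAAT, searched on both strands, is absent from the upstream window, occurs in the downstream one at 2 places, and is held by 32.01% of all windows. TATAAA, also searched on both strands, is in neither and is held by 10.7% of all windows. These letters describe the windows and say nothing of which factors act there.

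**Figure D5:**
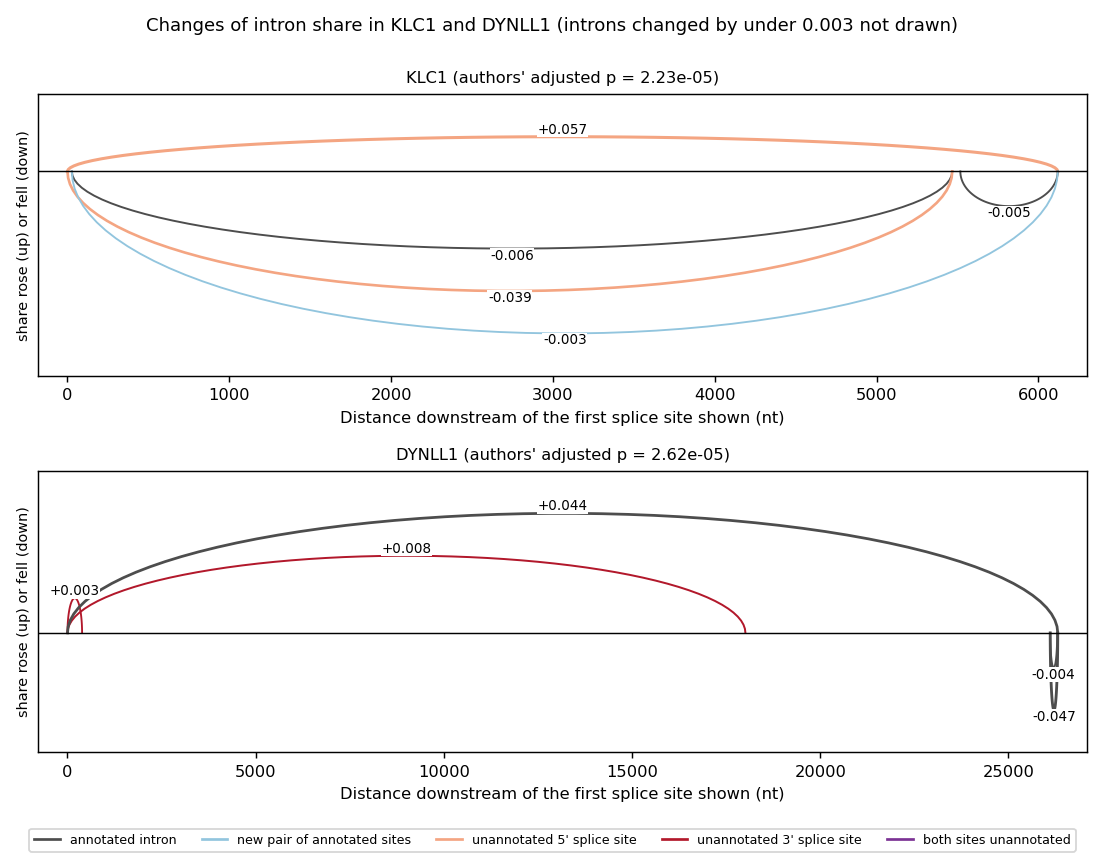
Introns of the KLC1 and DYNLL1 clusters as arcs over distance in nt from the first splice site shown, above the line where the share rose and below where it fell, with the deposited change on each arc and introns changed by under 0.003 in size left out. KLC1 shows the rise of 0.057 over the fall of -0.039 from the same 5' splice site, and DYNLL1 the rise of the long first intron (0.044) against the fall of the short one (-0.047).

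DYNLL2, the paralogue of DYNLL1, and DYNC1H1 had smaller changes. In DYNLL2 the intron that skips a 141-nt exon on chromosome 17 changed by -0.020 in the authors' deposited table (adjusted p = 0.00312). In DYNC1H1 the intron that skips a 147-nt exon at 102038460 to 102038606 gained 0.017 in the authors' deposited table (adjusted p = 0.00516). The RefSeq gene LOC107984661 also covers the 3 introns of this cluster. Both skipping introns are new pairings of annotated sites. The DYNC1H1 exon ends well before the sites described above: its last junction lies 12093 nt upstream of the falling polyadenylation site.

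Of the dynactin genes, DCTN2 encodes dynamitin, which holds the shoulder of the complex together, and DCTN3 encodes a smaller shoulder subunit. In DCTN2 the intron that skips a 103-nt exon of chromosome 12 gained 0.022 in the authors' deposited table (adjusted p = 0.00042). The length of this exon is not a multiple of 3, while those of the exons described in KLC2 (231 nt), DYNC1H1 (147 nt) and DYNLL2 (141 nt) are. The skipping intron gained share in KLC2 and DYNC1H1 and lost share in DYNLL2. A second DCTN2 cluster had its largest change at 0.050 (adjusted p = 0.0328) in the authors' deposited table, in an annotated intron. In DCTN3 the annotated intron from 34618760 to 34620369 on chromosome 9 gained 0.014 in the authors' deposited table (adjusted p = 0.0016). The 5 introns with unannotated sites in that cluster changed by -0.021 in sum. Another 2 of its introns start 7202 nt upstream of DCTN3, inside the RefSeq gene ARID3C, so the cluster spans both genes.

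Of the 32 motor genes, 2 were in 2 tables and 1 was in 3. The share of all gene symbols in more than 1 table was not counted, so nothing is read from these counts. DYNC1H1 was in 3 tables, with a shift to the distal site, the cryptic site that is the same position, and a gain of 0.017 for an exon-skipping intron. The shift and the cryptic site both come from 3' end-seq, so they are not separate evidence. KIF1C was in both polyadenylation tables, longer in 3' end-seq and distal in RNA-seq. KIF5C was in the RNA-seq polyadenylation table and the splicing table, and not in that of 3' end-seq. The other 15 listed genes were in 1 table each.

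Beyond the members, 118 other genes of motor-based transport were followed, of which 114 had a row in the gene table and 31 were listed in at least 1 table of changes. They were 25 other kinesins and light chains, 11 other dynein chains, 9 other dynactin subunits, 25 dynein regulators and adaptors, 29 kinesin adaptors and 19 axonemal dyneins. From 3' end-seq 6 were longer and 1 shorter, from RNA-seq 3 were distal and 1 proximal, and 25 had a splicing cluster. Of the 114 with a row, 27.2% were listed in any table, against 22.4% of all gene symbols. By table, 6.14% were listed from 3' end-seq against 9.64%, 3.51% from RNA-seq polyadenylation against 4.19%, and 21.9% for splicing against 11.8%. None of the 114 had a listed cryptic polyadenylation site, where 1.98% of all gene symbols had one. Levels were not matched, so nothing is read from these shares. DCTN5, a dynactin pointed-end subunit, was longer at 0.328 with an adjusted p given as exactly 0, and the dynein light chain gene DYNLT3 longer at 0.203 (adjusted p = 1.59e-18), in the authors' deposited table. The axonemal DNAI4 was the shorter one at -0.210 (adjusted p = 1.86e-05) in the authors' deposited table.

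Among these genes, 4 were in at least 2 tables, and the share of all gene symbols that were was not counted. MAPK8IP2, a scaffold that links kinesin to cargo, was longer at 0.175 (adjusted p = 1.32e-47) and distal at 0.472 (adjusted p = 2.73e-12), with a largest intron change of -0.028 (adjusted p = 0.0461), in the authors' deposited tables. TRAK1, which ties mitochondria to kinesin and dynein, was longer at 0.197 (adjusted p = 2.13e-138) with an annotated intron at -0.197 (adjusted p = 5.58e-07) in the authors' deposited tables. DCTN1, the dynactin subunit that binds microtubules, was distal at 1.46 (adjusted p = 1.68e-28) with a largest intron change of 0.053 (adjusted p = 0.00394) in the authors' deposited tables. CASK, a synaptic scaffold, was distal at 0.160 (adjusted p = 0.0136) with a largest intron change of 0.066 (adjusted p = 0.00314) in the authors' deposited tables. The light chain gene KLC3 was the proximal one at -1.12 (adjusted p = 0.0159) in the authors' deposited table. Apart from TRAK1, the largest intron changes were 0.236 in the liprin gene PPFIA4 (adjusted p = 0.0436), at an unannotated 3' splice site, and -0.202 in the dynein adaptor gene BICDL1 (adjusted p = 0.00184), at an annotated intron, in the authors' deposited table.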

How the data were processed

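RNA-seq and 3' end-seq were made from the same 2 groups, with stranded total RNA libraries and QuantSeq REV libraries, per the labels' protocols. Per the submitters' processing notes, the tools were STAR, Salmon, SAMtools, fastp and DESeq2 and the build was hg38, with no role for any tool. The deposited splicing results carry the name leafcutter. Which callers made the other tables, and which thresholds were used, is not stated. The deposited values were used as given. They were changes of a usage index (a score) and of intron share (a score rounded by the authors), adjusted p-values by the authors, and 1 deposited usage fraction per group for each cryptic site, printed as a percent. A count of introns is deposited with each cluster. QuantSeq REV primes on poly(A), and priming inside A-rich stretches was not tested.

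The 6 per-sample columns of the gene table carry names that match no label and were not used; its symbols were. Group assignment by TARDBP level was not made. The members and lists were chosen with earlier results of these data known. Named were all listed members, the cluster with the smallest p per gene, any cluster with an unannotated intron changed by at least 0.1, and, of other motor genes, those in at least 2 tables and the 3 largest changes per table; further clusters are given by their largest change. Symbols were matched through RefSeq synonyms (GRCh38.p14), and all 32 matched. Of 459 cryptic lines, 2 repeated a site and were counted once. No model was fitted and no test was run: the only values per library are in the 6 columns that were not used, and the design planned none. Coordinate functions were tested on simulated introns. Python 3.11.15, numpy 2.4.6, pandas 2.3.3 and matplotlib 3.10.9 were used.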

Additional observations from a re-analysis of the deposited data

How the results depend on the processing

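With symbols as given, all 5 counts of members and their introns were the same, and so was the count of rising sites at the RefSeq end (5) when 50 nt was allowed, an alternative chosen after seeing the data. In 3' end-seq all 5 members had an adjusted p of at most 0.001 and sites at most 10000 nt apart, and 2 had a change of at least 0.2. The median change over all 1881 longer genes was 0.214. In RNA-seq polyadenylation 1 of 4 had a change of at least 0.5, and 1 of 4 an adjusted p of at most 0.001. The cryptic site of DYNC1H1 did not reach a usage of 20% after shTDP-43, which leaves 0. Of the 12 genes in the splicing table, 2 had an intron changed by at least 0.1 and 6 a cluster with an adjusted p of at most 0.001. By cluster, 2 of 15 (13.3%) had such an intron, against 33% of all clusters. Of 39 introns with an unannotated splice site, 1 changed by at least 0.1. Over all 6391 introns of this kind, 293 rose and 126 fell by at least 0.1. The other stricter counts have no share over all listed items beside them, so nothing is read from them. These alternatives keep fewer genes by construction. No paired analysis was possible because the only columns with values per library match no sample label and were not used, and for the same reason no replicate was left out. Depth is unknown, so small changes carry no counting error here.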
